A study of Pimephales promelas with 51 samples.

Results

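Interferon regulatory factors (IRFs) and signal transducers and activators of transcription (STATs) are the transcription factors through which cells switch on and obey interferon. They were followed here in whole fathead minnow larvae exposed to a glucocorticoid. Those described here are irf1b, irf2, irf3, irf5, irf7, irf8, irf9, stat2 and stat3, and each was taken as the row of the count tables with exactly that name. Of 10 listed genes among 36695 genes in the tables, 9 were measured. They were selected on measured values, the low irf9 and irf1b levels of larvae at 0.19 µM fluticasone propionate against DMSO. That contrast is therefore described below and not tested.

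Reads came from the 3′ ends of messenger RNAs of whole larvae of the fathead minnow (Pimephales promelas), a small freshwater fish of toxicity testing. Larvae of the GLTED-Duluth-wt strain, 5 to 6 days after fertilisation, stood for 24 h in dexamethasone (0.008, 0.025, 0.08, 0.25, 0.8, 2.5, 8 or 25 µM), in fluticasone propionate (0.003, 0.006, 0.01, 0.019, 0.034, 0.06, 0.1 or 0.19 µM) or in the solvent DMSO. These 17 groups had 3 libraries each, called A, B and C, 51 in all, and both compounds were set against the same 3 DMSO libraries. Both compounds are synthetic corticosteroids that activate the glucocorticoid receptor. Unlike dexamethasone, fluticasone propionate has a fluoromethyl thioester side chain and is esterified with propionate. Groups are named by their labelled nominal concentration. The measured concentration was 0.0066 µM in the lowest and 23.6726 µM in the highest dexamethasone group, and 0.0019 and 0.0597 µM in those of fluticasone propionate. The labels describe the RNA as taken from pooled homogenates, and nothing in them tells whether the libraries of a group come from separate exposures. The p-values therefore measure the spread between these libraries, which may be technical.

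In vertebrates, sensors of foreign nucleic acid lead to phosphorylation of Irf3 and Irf7, which enter the nucleus and start transcription of interferon genes. Secreted interferon binds receptors coupled to Janus kinases, which phosphorylate STAT proteins. Stat2 then joins Irf9 in a complex that binds the promoters of interferon-stimulated genes, while Stat3 serves mainly cytokines of the interleukin 6 family. Glucocorticoids are known in mammals to dampen many inflammatory and interferon responses, and the receptor acts at genes that also bind STATs and IRFs.

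Reads assigned to genes numbered 1316614 to 2097358 per library, with a median of 1618729, and 22.6 to 33.6% of a library's reads lay outside genes. That share was above 30% in 7 libraries, 6 of dexamethasone and 1 of fluticasone propionate, and the members' contrasts and slopes with an unadjusted p under 0.05 were also fitted without them. The glucocorticoid receptor gene nr3c1 had log2 differences from DMSO between -0.23 and 0.19 over the 16 treated groups, none of them called. The libraries held whole larvae: all 18 of the muscle, liver, skin, eye, pancreas and brain markers found in the tables reached 10 reads. Their levels differed between groups and are given with the leukocyte markers at the end. In such bulk samples fewer cells of a type and less RNA per cell cannot be told apart.

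The members were thinly covered. Reads per library ran from 79 to 161 for stat2 (median 105), 35 to 79 for irf2 (59) and 31 to 85 for stat3 (56). They ran from 14 to 39 for irf5 (median 23), 3 to 42 for irf1b (18), 5 to 26 for irf9 (16), 6 to 28 for irf7 (14) and 1 to 14 for irf3 (6). The gene irf8, which in zebrafish directs myeloid progenitors to the macrophage fate, had at most 7 reads in any library, 90 over all 51 and none in 12, and is not measured. The lowest member above the minimum of 10 reads in some library, irf3, reached 14. Levels below are in CPM, a gene's share of the gene reads of its library, scaled by the trimmed mean of M-values (TMM). Log2 differences carry their standard error from edgeR's quasi-likelihood fit, and a gene is called where its adjusted p over all tested genes is under 0.05.

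The gene irf9, whose product gives the complex with Stat2 its DNA contacts, was lowest in the upper fluticasone propionate groups. Its 3 libraries had 14.3, 10.6 and 17.8 CPM in DMSO. Along rising fluticasone propionate they had 5.69, 16.7 and 15.1 CPM at 0.003 µM, 11.8, 8.84 and 15.9 at 0.006 µM, 9.05, 8.47 and 10.9 at 0.01 µM, and 9.59, 11.3 and 9.14 at 0.019 µM. At the upper end they had 6.62, 7.48 and 8.61 CPM at 0.034 µM, 12.3, 14.2 and 9.80 at 0.06 µM, 6.57, 5.74 and 3.36 at 0.1 µM, and 5.29, 4.65 and 7.50 at 0.19 µM. All 3 libraries lay below every DMSO library at 0.034, 0.1 and 0.19 µM, while those at 0.06 µM, between them, overlapped DMSO. Such full separation below DMSO was shown by 5.71% of all tested genes at 0.034 µM, by 5.92% at 0.1 µM and by 6.7% at 0.19 µM, the contrast that chose the members.

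The libraries at 0.1 µM took no part in choosing the members, but the DMSO libraries did, and DMSO had the highest irf9 mean of all 17 groups. Each contrast of irf9 or irf1b with DMSO therefore reuses values of the choice. At 0.1 µM fluticasone propionate irf9 averaged 5.22 ± 1.67 CPM, against 14.2 ± 3.61 CPM in DMSO (SD, n = 3 each). The log2 difference was -1.43 ± 0.38 (95% interval -2.18 to -0.68). Its unadjusted p was 0.000353 and its adjusted p 0.287, so it was not called (edgeR quasi-likelihood test, Benjamini-Hochberg). Over the alternatives run, its adjusted p was 0.0855 to 0.927. At 0.034 µM the difference was -0.90 ± 0.35 (adjusted p = 0.824, edgeR), with an unadjusted p of 0.0124. At 0.19 µM the described difference was -1.27, from 5.81 ± 1.49 CPM (SD, n = 3).

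With dexamethasone, irf9 overlapped DMSO at every concentration. Its group means were 9.28 CPM at the lowest, in the 0.8 µM group, and 12.4 CPM at the highest, in the 0.25 µM group. The log2 differences were between -0.60 ± 0.33 and -0.19 ± 0.32, none called. In the 25 µM group the libraries had 11.01, 10.2 and 14.8 CPM. The receptor target fkbp5, a co-chaperone of steroid receptors, was there higher than DMSO by 2.29 ± 0.20 on the log2 scale. With fluticasone propionate fkbp5 differed from DMSO by 0.91 ± 0.26 at 0.1 µM, not called (adjusted p = 0.555, edgeR). At 0.034 µM it differed by -0.05 ± 0.27. The relation of irf9 to fkbp5 was not tested. Each of the 16 treated means of irf9 lay below its DMSO mean. These irf9 differences all share the same 3 DMSO libraries.

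**Figure D1:**
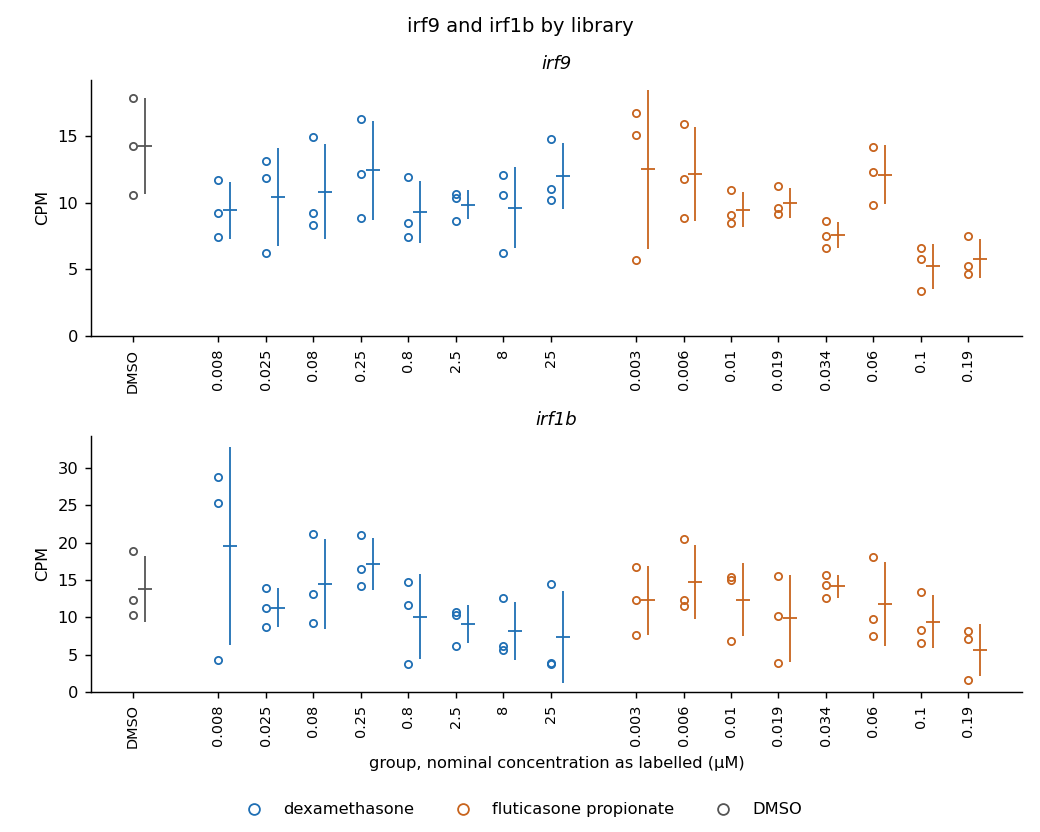
Levels of irf9 and irf1b in each of the 51 libraries, in CPM on a linear axis that starts at 0, with DMSO at the left, then dexamethasone and fluticasone propionate by rising labelled concentration. Open circles are libraries and the dash with its line is the group mean ± SD (n = 3); the irf9 circles at 0.1 µM fluticasone propionate lie at 3.36 to 6.57 CPM, below all DMSO circles, and irf1b circles of single groups spread widely.

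The gene irf1b is one of the fish counterparts of Irf1, an activator that interferon gamma itself induces. It was the most variable member. In the 0.008 µM dexamethasone group its libraries had 25.4, 4.34 and 28.9 CPM, and in the 25 µM group 14.5, 3.83 and 3.70 CPM, against 10.3, 18.8 and 12.3 CPM in DMSO. In both treated groups 1 library stood far from the other 2, and both groups overlapped DMSO. Measured against counting error over all 17 groups, the variance of irf1b within groups was 3.88 times that of Poisson counts. That is the 98.8th percentile among 4141 genes of similar level, whose median was 1.46. The same ratio was 0.97 for irf3, 1.19 for irf9 and at most 1.76, for irf2, among the other members. Percentiles for these 8 genes lay between 9.73 and 59.2 among genes of their own level.

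At 0.19 µM fluticasone propionate, the contrast that chose the members, irf1b had 7.05, 8.14 and 1.61 CPM, against 10.3, 18.8 and 12.3 CPM in DMSO. The 3 treated libraries lay below the DMSO libraries, as did those of 6.7% of tested genes, and the described log2 difference was -1.32. Library C, with 3 reads, set much of that size: without it the difference was -0.85. At 0.1 µM the libraries had 6.57, 8.29 and 13.4 CPM and overlapped DMSO, with a difference of -0.55 ± 0.42. At the highest dexamethasone concentration the difference was -0.80 ± 0.59 (95% interval -2.02 to 0.42). None of the tested contrasts of irf1b with DMSO had an unadjusted p under 0.05.

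The gene irf7, an inducer of interferon genes that acts downstream of nucleic acid sensors, had all its libraries below DMSO in 3 dexamethasone groups. It had 7.51, 7.03 and 6.66 CPM at 25 µM, against 15.97, 8.83 and 11.7 CPM in DMSO. The groups did not overlap at 25 µM, and the same held at 0.08 µM (8.599, 7.16 and 3.84 CPM) and at 2.5 µM (6.74, 8.59 and 8.50 CPM). Such separation below DMSO was shown by 8.02% of all tested genes at 25 µM, 5.41% at 0.08 µM and 9.41% at 2.5 µM. Log2 differences from DMSO were -0.77 ± 0.35 at 25 µM (adjusted p = 0.419, edgeR), -0.89 ± 0.36 at 0.08 µM (adjusted p = 0.833, edgeR) and -0.62 ± 0.35 at 2.5 µM (adjusted p = 0.572, edgeR). The share of reads outside genes averaged 25.8 ± 1.30% at 25 µM and 28.6 ± 3.61% at 0.08 µM, against 25.0 ± 0.451% in DMSO (SD, n = 3 each). Without the libraries above 30%, library A at 0.08 µM among them, the differences were -0.79 at 25 µM and -1.13 at 0.08 µM, neither called. Without DMSO library A the difference at 25 µM was -0.51. With fluticasone propionate all 8 groups overlapped DMSO. The reference table places phrf1 over the same stretch as irf7, and reads that fall on both genes may be set aside as ambiguous.

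Its partner irf3, which responds first to sensors in mammals, had the fewest reads. At 0.8 µM dexamethasone it had 2.60, 1.60 and 2.27 CPM, against 3.42, 5.89 and 5.49 CPM in DMSO, from 3 or 4 reads per treated library. The groups did not overlap, as for 11.3% of tested genes with all treated libraries below, and the log2 difference was -1.17 ± 0.54 (adjusted p = 0.245, edgeR). Reads outside genes made up 30.4 ± 2.76% of these libraries, against 25.0 ± 0.451% in DMSO (SD, n = 3 each). With that share as a covariate the difference was -0.90, and without the libraries above 30% it was -1.32, neither called. Summed tissue markers were lower at 0.8 µM too, at 10093 to 11909 CPM, against 13244 to 13825 CPM in DMSO, and their part in the irf3 and irf5 values at 0.8 µM was not tested. At 25 µM irf3 overlapped DMSO, with a difference of -0.07 ± 0.48. In the contrasts of fluticasone propionate with DMSO and in its trend irf3 failed the filter on low counts and was not tested. At 0.19 µM, the contrast that chose the members, it had 2.35, 2.91 and 3.21 CPM, from 4 to 6 reads per library. These libraries lay below those of DMSO, a separation shown by 6.7% of tested genes.

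The gene irf5, which in mammals drives inflammatory cytokines downstream of Toll-like receptors, lay above DMSO in 3 groups. At 0.034 µM fluticasone propionate it had 19.3, 15.6 and 25.8 CPM, against 14.3, 8.83 and 13.0 CPM in DMSO. All 3 treated libraries exceeded all DMSO libraries, as did those of 5.32% of tested genes, and the log2 difference was 0.75 ± 0.31 (adjusted p = 0.864, edgeR). At 0.1 µM it had 13.9, 13.4 and 13.4 CPM and overlapped DMSO. Its libraries also lay above DMSO at 0.8 µM dexamethasone (16.9, 20.8 and 14.7 CPM) and at 8 µM (21.7, 14.3 and 17.004 CPM), with differences of 0.54 ± 0.28 and 0.56 ± 0.28. Those of 11% of tested genes did so at 0.8 µM and of 7.25% at 8 µM. At 25 µM it had 11.5, 9.58 and 11.8 CPM, a difference of -0.13 ± 0.31. DMSO ranked 15 of 17 by mean, so only 2 treated means lay below it.

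The gene irf2, which in mammals competes with Irf1 for its sites, was among the members whose group means differed least. Its group means were between 30.5 CPM at 0.034 µM and 41.0 CPM at 0.006 µM fluticasone propionate, a ratio of 1.34. Against DMSO, at 38.1 ± 4.03 CPM (SD, n = 3), its log2 differences were between -0.33 ± 0.19 and 0.08 ± 0.19 in the tested contrasts. The libraries at 2.5 µM dexamethasone, with 34.3, 25.1 and 34.6 CPM, lay below the 42.8, 35.3 and 36.3 CPM of DMSO, with a difference of -0.28 ± 0.21. Those of 9.41% of tested genes lay below DMSO there. No irf2 contrast had an unadjusted p under 0.05.

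**Figure D2:**
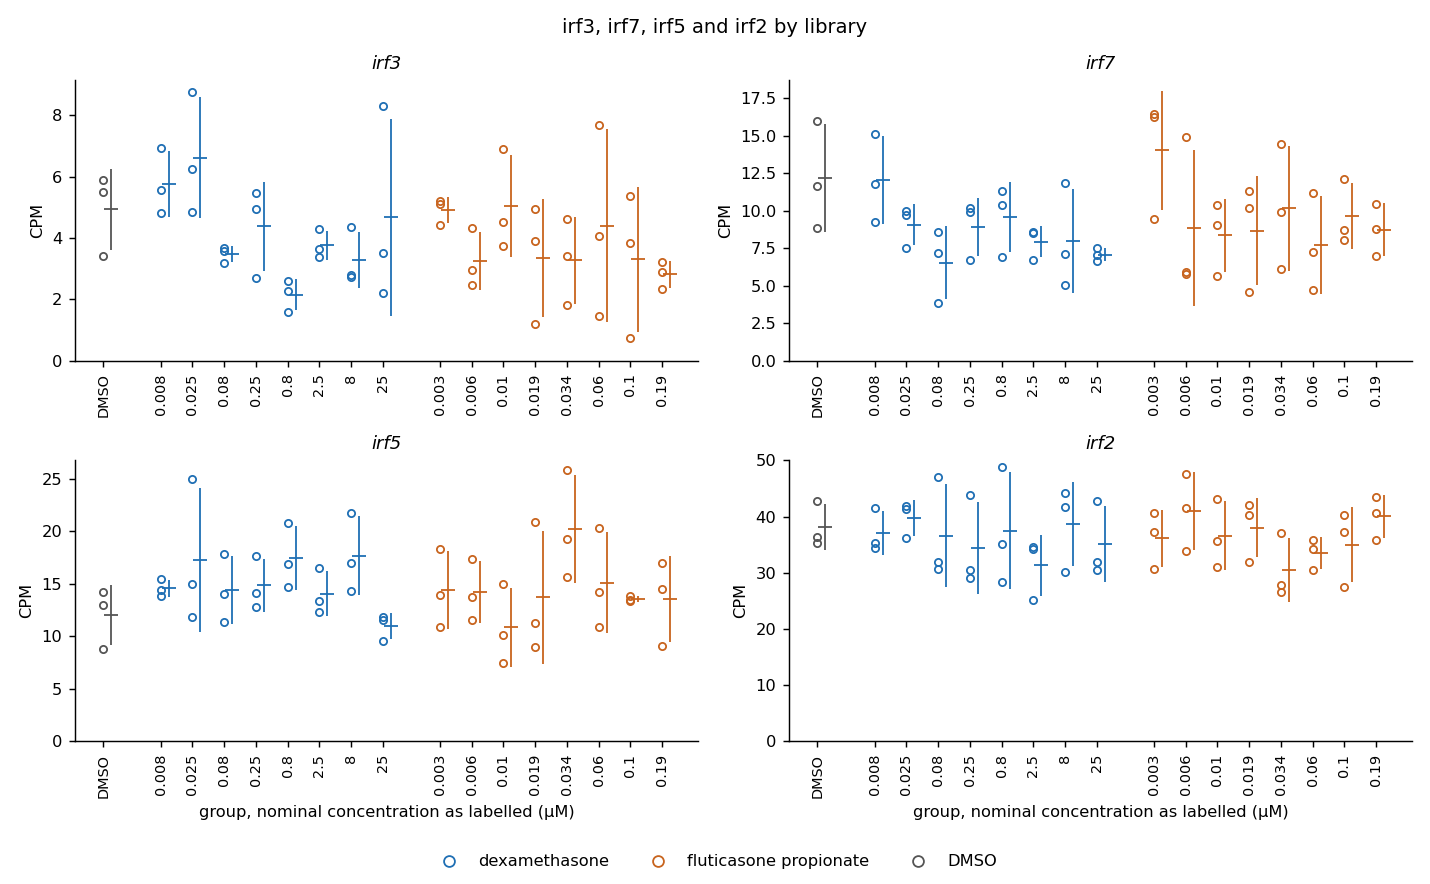
Levels of irf3, irf7, irf5 and irf2 in each of the 51 libraries, in CPM on linear axes that start at 0, by labelled concentration with DMSO at the left. Circles are libraries and the dash with its line is the group mean ± SD (n = 3). The irf7 circles at 25 µM dexamethasone sit at 6.66 to 7.51 CPM, below the 3 DMSO circles. The irf5 circles lie above those of DMSO at 0.034 µM fluticasone propionate and at 0.8 and 8 µM dexamethasone, and overlap them in the other groups.

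The ratio of the highest to the lowest group mean was 1.27 for stat2 and 1.40 for stat3, and among the IRFs other than irf2 it lay between 1.87 for irf5 and 3.49 for irf1b. Those IRFs had fewer reads, and counting error alone widens the ratio there, so it does not compare STATs with IRFs. The gene stat3, which carries signals of the interleukin 6 family, had its highest mean in DMSO, so that all 16 treated means lay below it. Its libraries had 32.0, 28.8 and 31.1 CPM at 25 µM dexamethasone, against 48.5, 33.6 and 41.8 CPM in DMSO. The groups did not overlap, as for 8.02% of tested genes with all treated libraries below, and the log2 difference was -0.43 ± 0.20 (adjusted p = 0.444, edgeR). At 0.01 µM fluticasone propionate its libraries, with 33.5, 26.5 and 33.3 CPM, also lay below DMSO (-0.41 ± 0.20), as did those of 4.79% of tested genes. At 0.06 µM it had 36.9, 29.8 and 21.7 CPM, which overlap DMSO (-0.49 ± 0.21). These 2 contrasts had unadjusted p-values of 0.0432 and 0.0214 and were not called (edgeR adjusted p = 0.999 and 0.984). Without DMSO library A the first was -0.26, and without library C at 0.06 µM the second was -0.31.

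The gene stat2, whose product is a partner of Irf9, was the best covered member. It had 67.1, 67.1 and 68.1 CPM at 25 µM dexamethasone and 63.5, 67.0 and 77.2 CPM at 0.1 µM fluticasone propionate, against 53.0, 63.6 and 69.3 CPM in DMSO. No group separated from DMSO, and the log2 differences of tested contrasts were between -0.06 ± 0.15 and 0.23 ± 0.15. At 0.1 µM fluticasone propionate, stat2 thus had 0.16 ± 0.15 where irf9 had -1.43 ± 0.38. The difference between these 2 genes was not tested.

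**Figure D3:**
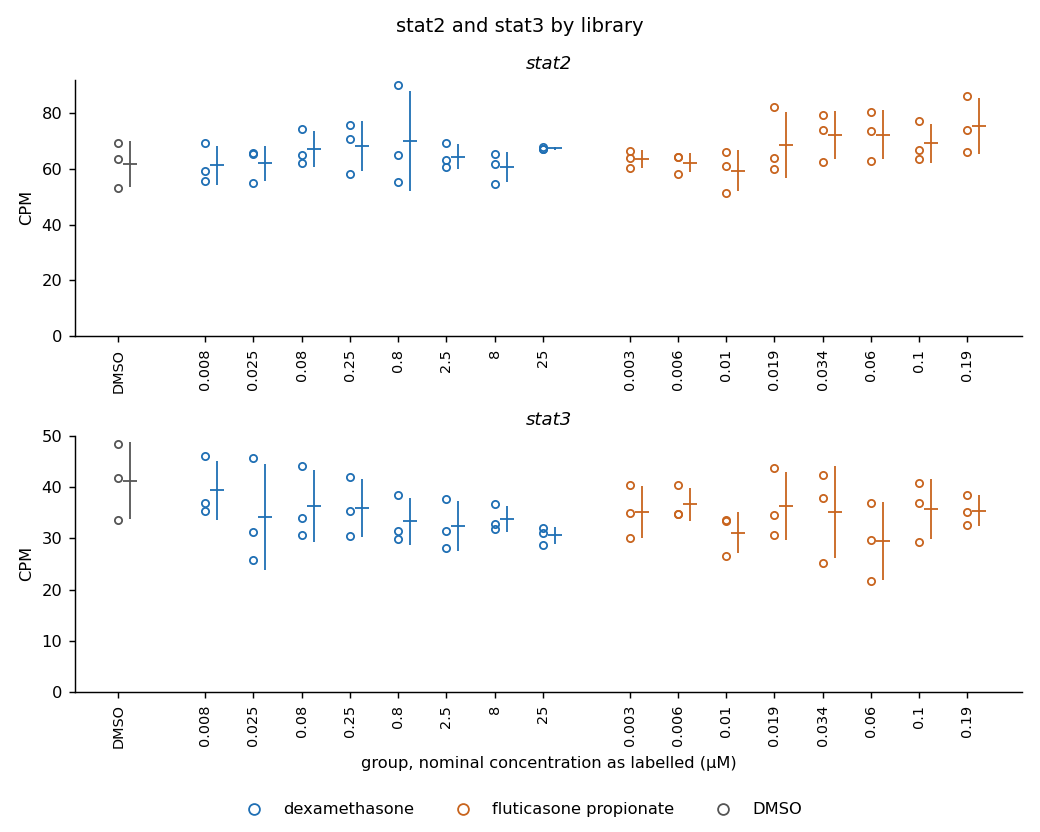
Levels of stat2 and stat3 in each of the 51 libraries, in CPM on linear axes that start at 0, by labelled concentration with DMSO at the left. Circles are libraries and the dash with its line is the group mean ± SD (n = 3); the stat3 circles at 25 µM dexamethasone sit at 28.8 to 32.0 CPM below the DMSO circles, while stat2 circles of all groups overlap those of DMSO.

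Taking the members together, none was called in any of the 8 contrasts of dexamethasone with DMSO, by edgeR or by DESeq2. DESeq2 gave no adjusted p for 26 of its 72 member values. By edgeR 4 of the 72 values had an unadjusted p under 0.05: irf7 at 0.08 µM, irf3 at 0.8 µM, and irf7 and stat3 at 25 µM. From the lowest to the highest concentration, 0, 0, 0, 0.0166, 2.47, 0.133, 0.194 and 1.32% of the 18075 tested genes were called. In the same order, 3.45, 6.94, 5.82, 11.2, 17.3, 9.63, 9.01 and 10.1% had an unadjusted p under 0.05. Among the 8 measured members described, full separation below DMSO was shown by irf7 at 0.08 µM (5.41% of all tested genes), by irf3 at 0.8 µM (11.3%), by irf2 and irf7 at 2.5 µM (9.41%), and by irf7 and stat3 at 25 µM (8.02%). Full separation above DMSO was shown by irf5 at 0.8 µM (11%) and at 8 µM (7.25%). At 25 µM, 8 of 9 members had a negative difference and 1, stat2, a positive one, with a median of -0.25, against a median of 0.004 over all tested genes. The share of negative differences over all tested genes is given below with the interferon-stimulated genes. Nothing is read from this count or median, since both include irf9 and irf1b, which were picked against the same DMSO libraries.

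None of the 8 members tested was called in the 7 contrasts of 0.003 to 0.1 µM fluticasone propionate with DMSO either, by edgeR or by DESeq2, which gave no adjusted p for 4 of 64 values with 0.19 µM counted in. By edgeR 5 values had an unadjusted p under 0.05: stat3 at 0.01 µM, irf9 and irf5 at 0.034 µM, stat3 at 0.06 µM and irf9 at 0.1 µM. From the lowest to the highest of these concentrations, 0.00559, 0, 0, 0, 0, 0.0168 and 0.0727% of the 17877 tested genes were called. In the same order, 3.1, 3.69, 3.51, 7.15, 5.71, 4.96 and 5.6% had an unadjusted p under 0.05. Medians of the members were between -0.20 and 0.04 over the 7 contrasts, against medians between -0.01 and 0.002 over all tested genes. The members' medians include irf9 and irf1b here too, so nothing is read from them. At 0.19 µM 0.246% of tested genes were called.

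**Figure D4:**
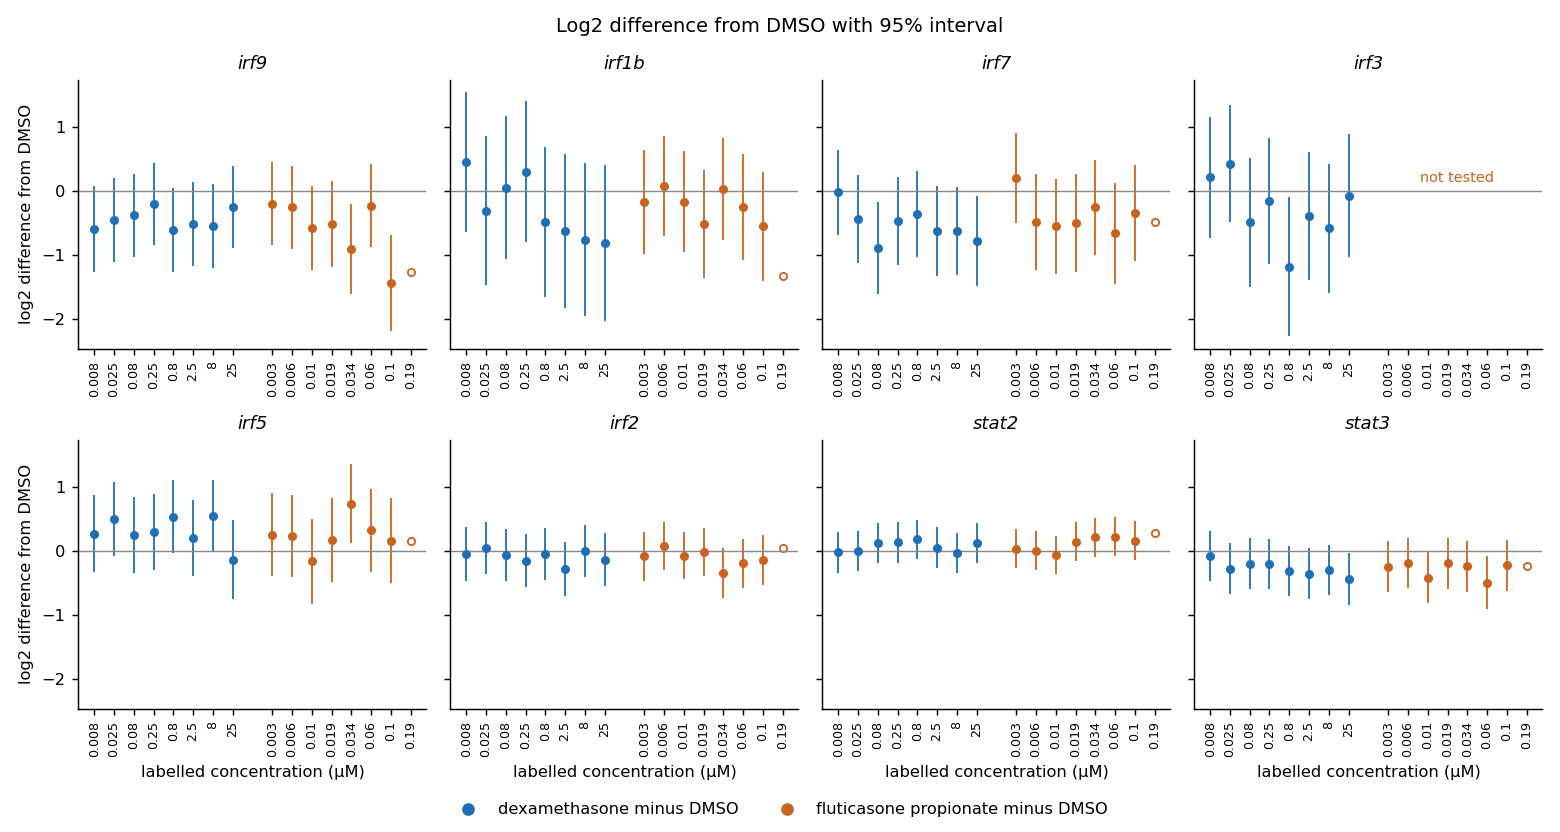
Log2 difference from DMSO of 8 measured members at each labelled concentration of dexamethasone and of fluticasone propionate. Filled points with lines are the fitted difference and its 95% interval (3 libraries per group). Open points at 0.19 µM are described without a test, and irf3 was not tested against DMSO with fluticasone propionate. The irf9 interval at 0.1 µM, -2.18 to -0.68, has the upper end farthest below 0. The stat2 points stay within -0.06 and 0.29.

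Trends were then fitted among treated libraries alone, without DMSO, as the log2 change per log10 unit of nominal concentration. These fits use no library of the contrast that chose the members. For dexamethasone (24 libraries) none of the 9 members was called by edgeR or DESeq2, 1 had an unadjusted p under 0.05 (11.4% of tested genes), and 2.16% of the 17958 tested genes were called. That member was irf1b, with a slope of -0.34 ± 0.12 (unadjusted p = 0.00869, adjusted p = 0.185, edgeR). Its group means, from 0.008 to 25 µM, were 19.5, 11.3, 14.5, 17.2, 10.1, 9.08, 8.14 and 7.35 CPM, high in the lowest group through 2 of its libraries and lowest in the highest group. Without the libraries above 30% outside genes the slope was -0.33. Slopes were -0.20 ± 0.11 for irf3, -0.14 ± 0.08 for irf7, -0.08 ± 0.04 for stat3, -0.05 ± 0.06 for irf5 and -0.03 ± 0.05 for irf2. The slope of irf9 was 0.02 ± 0.07 and that of stat2 0.01 ± 0.03.

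For fluticasone propionate from 0.003 to 0.1 µM (21 libraries) none of the 8 members was called by edgeR or by DESeq2, which gave 4 of them no adjusted p, 1 had an unadjusted p under 0.05 (9.47% of tested genes), and 0.19% of the 17390 tested genes were called. The member was irf9, with a slope of -0.50 ± 0.20 per log10 unit (unadjusted p = 0.017, adjusted p = 0.391, edgeR). Without the libraries of letter C it was -0.22 (adjusted p = 0.889, edgeR), so its size rests on them. With the 0.19 µM group, which chose the members, its slope was -0.56. Slopes of the others were -0.28 ± 0.21 for irf7, -0.22 ± 0.20 for irf1b, -0.15 ± 0.11 for irf2, -0.05 ± 0.11 for stat3, 0.13 ± 0.17 for irf5 and 0.15 ± 0.08 for stat2. The slope of irf9 over dexamethasone, 0.02 ± 0.07, covers another range of concentrations, and the 2 slopes were not compared.

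**Figure D5:**
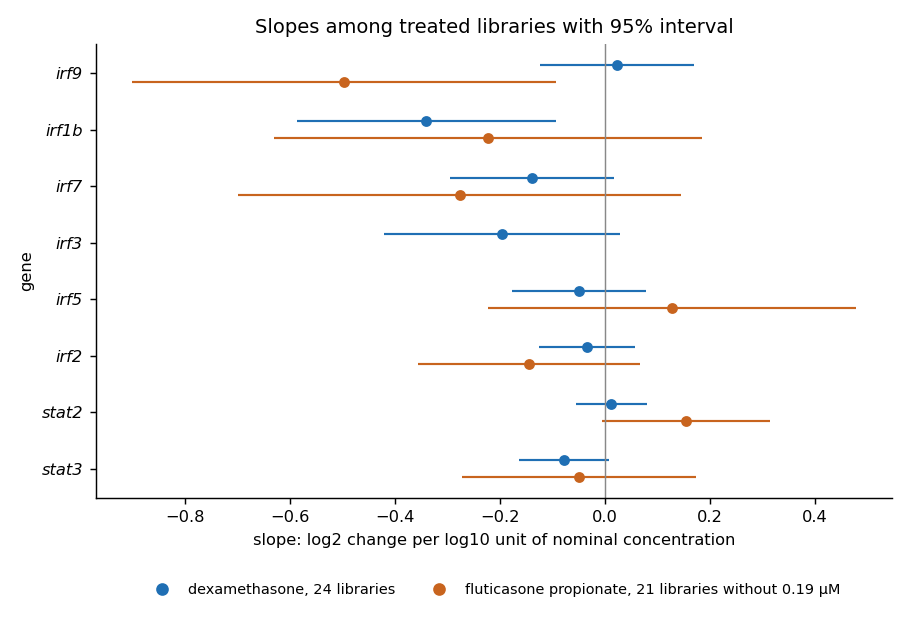
Slopes of 8 measured members on log10 nominal concentration among treated libraries, in log2 units per log10 unit, for dexamethasone and for fluticasone propionate without 0.19 µM. Points are fitted slopes and lines their 95% intervals (24 and 21 libraries); the intervals of irf1b with dexamethasone, -0.59 to -0.09, and of irf9 with fluticasone propionate, -0.90 to -0.09, lie below 0 before any adjustment for the number of genes.

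The compounds were compared at 3 pairs of groups whose measured concentrations lay close together. The first set dexamethasone measured at 0.055 µM, the group labelled 0.08 µM, against fluticasone propionate measured at 0.0597 µM, the group labelled 0.19 µM. The libraries at 0.19 µM are those for which irf9 and irf1b were picked, so these 2 genes are described here without a test. The gene irf9 had 9.21, 14.9 and 8.32 CPM with dexamethasone and 5.29, 4.65 and 7.50 CPM with fluticasone propionate. The gene irf1b had 9.21, 13.1 and 21.1 CPM with dexamethasone and 7.05, 8.14 and 1.61 CPM with fluticasone propionate. The log2 differences, dexamethasone minus fluticasone propionate, were 0.88 for irf9 and 1.38 for irf1b. Libraries of neither gene overlapped, as for 6.95% of 18606 tested genes with dexamethasone above, and nothing is read from this, since the choice of members favours that direction. The other 7 members had differences between -0.41 ± 0.39, for irf7, and 0.29 ± 0.56, for irf3. None of these 7 was called by edgeR (0.344% of tested genes) or by DESeq2, which gave no adjusted p for 5 of 27 member values over the 3 pairs. None had an unadjusted p under 0.05, against 10.5% of tested genes.

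The other pairs share no library with the contrast that chose the members. One set 0.025 µM dexamethasone, measured at 0.0189 µM, against 0.06 µM fluticasone propionate, measured at 0.0158 µM. The other set 0.008 µM dexamethasone, measured at 0.0066 µM, against 0.019 µM fluticasone propionate, measured at 0.0072 µM. In both edgeR and DESeq2 called no gene, members included. None of the 9 members had an unadjusted p under 0.05 in either, against 4.36% and 5.44% of all tested genes. For irf9 the intervals of the difference were -0.90 to 0.45 and -0.79 to 0.62, and for stat2 they were -0.53 to 0.08 and -0.48 to 0.14. For irf1b they were wider, -1.20 to 1.08 and -0.12 to 2.05.

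When the 17 groups were ordered by mean level, all 16 neighbours in the order had overlapping libraries for every measured member. Such an order places the closest groups side by side, which favours overlap, so nothing is read from this. Pairs of members moved little with each other within groups. Spearman correlations of their deviations from group means were between -0.20 and 0.41 over 36 pairs, with a median near 0, as a description over 51 libraries. The genes most like each member in their 17 group means were ranked among 12361 genes with a symbol and at least 5 CPM. They were kti12, setdb1a and cdk5 for irf9 (Spearman 0.86, 0.85 and 0.75) and gsr, ctsc and epdl2 for irf1b (0.86, 0.84 and 0.83). The closest were proca for irf7 (0.85), gabrz for irf5 (0.85), ncoa6 for irf2 (0.83), spag5 for irf3 (0.83), fbxl22 for stat2 (0.80) and zc3hc1 for stat3 (0.88). The points share libraries and scaling, and values of this size are the highest of many.

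Most ligands of the pathway were below measurement. Of 18 listed cytokine genes found, 4 reached 10 reads in some library. The interferon gene ifnphi2 had no read at all, and ifnphi1, ifnphi3, ifnphi4, ifng1, il6 and il10 stayed under 10 reads in every library. The only ligand that passed the filter was il11a, a cytokine that acts through Stat3, at 0.35 ± 0.37 with 25 µM dexamethasone and 0.49 ± 0.39 with 0.1 µM fluticasone propionate. Among the Janus kinases tyk2 had no read. The other 4 were tested and none was called in any comparison, with jak1 at 0.09 ± 0.12 and jak2b at 0.11 ± 0.16 at 25 µM dexamethasone.

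Of 18 tested receptor genes 1 was called with dexamethasone, in 2 comparisons, and none with fluticasone propionate from 0.003 to 0.1 µM. It was ghrb, a growth hormone receptor, which signals through a Janus kinase to Stat5. It had 18.5, 20.05 and 24.3 CPM at 2.5 µM dexamethasone, against 5.13, 8.83 and 9.60 CPM in DMSO, and rose by 1.42 ± 0.31 (adjusted p = 0.032, edgeR). Along the dexamethasone trend it rose by 0.26 ± 0.07 per log10 unit (adjusted p = 0.0307, edgeR). Leaving out any library of the 2.5 µM group, or DMSO library A or B, ended the first call (1.19 to 1.53). Each of the 3 letters left out in turn ended the second (0.23 to 0.31).

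Interferon-stimulated genes, the targets of the complex of Stat2 and Irf9, were tested for 20 of 67 listed genes in the contrasts with DMSO. Of the 67, 37 were found, and 23 of these reached 10 reads in some library. Among those found, psmb12 had no read, and rsad2, mxf, ifit8 and cmpk2 stayed under 10 reads in every library. None of the 20 was called at 25 µM dexamethasone or at 0.1 µM fluticasone propionate, by edgeR or by DESeq2. At 25 µM dexamethasone 17 of 20 had a negative difference, against 49.4% of all tested genes, and the median was -0.69, against 0.004 over all tested genes. With only the 6 compared libraries, 10 of these genes passed the filter and their median was -0.40. The summed level of the listed genes was 201 to 231 CPM there, against 263 to 296 CPM in DMSO. It also lay below DMSO at 0.8 (247 to 260 CPM), 2.5 (202 to 252) and 8 µM dexamethasone (227 to 259). The same held at 0.06 (222 to 250 CPM), 0.1 (242 to 251) and 0.19 µM fluticasone propionate (235 to 252), the last from the contrast that chose the members. In the other groups it overlapped DMSO. How often sums of other genes separate so was not tested. The best covered at 25 µM dexamethasone were adar, an RNA-editing enzyme (-0.18 ± 0.18), and ifi30, a lysosomal thiol reductase of antigen processing (-0.60 ± 0.30). Larger differences were those of low genes named after their values were seen: the invariant chain gene cd74b (-1.24 ± 0.44), the sensor nod2 (-1.15 ± 0.38) and the proteasome activator psme1 (-1.13 ± 0.40), with adjusted p-values of 0.202, 0.145 and 0.193 (edgeR).

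Medians of the 20 stimulated genes from 0.008 to 25 µM dexamethasone were 0.08, -0.11, -0.04, -0.06, -0.21, -0.48, -0.45 and -0.69. From 0.003 to 0.1 µM fluticasone propionate they were -0.04, 0.05, 0.05, 0.09, -0.11, -0.22 and -0.22. Both series were near 0 at low and lowest at high concentrations. All these medians are against the same 3 DMSO libraries. In the dexamethasone trend 17 of 19 slopes were negative, against 52.4% of all tested genes, and 1 gene was called. In that of fluticasone propionate 17 of 20 were negative, against 50.9%, and none was called (edgeR and DESeq2). The called gene was tap1, which carries peptides into the endoplasmic reticulum for antigen presentation, with a slope of -0.40 ± 0.11 per log10 unit (adjusted p = 0.0278, edgeR). Its level was 2.002, 3.19 and 5.92 CPM at 25 µM dexamethasone, against 5.70, 7.07 and 8.91 CPM in DMSO. The call was lost without any 1 replicate letter (-0.50 to -0.27), without the 25 µM group (-0.41) and without the libraries above 30% outside genes (-0.36).

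Among 26 tested targets of Stat3 or Stat5 the anti-apoptotic gene mcl1b rose. It had 165, 235 and 173 CPM at 25 µM dexamethasone, against 91.2, 71.3 and 98.1 CPM in DMSO, a difference of 1.14 ± 0.22 (adjusted p = 0.00586, edgeR), or 1.01 without DMSO library B, where it was not called. At 0.19 µM fluticasone propionate, the contrast that chose the members, its described difference was 0.69. Its dexamethasone slope was 0.25 ± 0.06, that of the fibrinogen gene fga 0.10 ± 0.03 and that of the survivin gene birc5a -0.38 ± 0.10, all called (edgeR adjusted p = 0.0225, 0.0332 and 0.0347). Each of these 3 calls was lost without at least 1 replicate letter and without the 25 µM group. The other 25 targets were not called at 25 µM, and none of 25 tested was called from 0.003 to 0.1 µM fluticasone propionate. The summed level of the 29 listed targets found, mcl1b among them, was 1254 to 1568 CPM at 25 µM dexamethasone, above the 1095 to 1168 CPM of DMSO. At 0.1 µM fluticasone propionate it was 1127 to 1394 CPM and overlapped DMSO. At 0.19 µM, the contrast that chose the members, it was 1180 to 1340 CPM, above DMSO. These targets answer to many other factors too.

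Among the remaining lists, none of 20 tested inhibitors, the SOCS and PIAS genes among them, none of 14 tested nucleic acid sensors and none of the other tested IRF and STAT genes was called in any comparison. Leukocyte markers were measured beside these results. The summed level of 4 pan-leukocyte genes was 46.0 to 49.5 CPM at 25 µM dexamethasone and 38.3 to 67.0 CPM at 0.1 µM fluticasone propionate, against 45.3 to 77.7 CPM in DMSO. That of 9 macrophage genes found was 37.1 to 56.6 CPM at 25 µM dexamethasone and 46.7 to 54.9 CPM at 0.1 µM fluticasone propionate, against 43.9 to 55.4 CPM in DMSO. Of 5 neutrophil genes found, lyz had no read and 1 reached 10 reads. The pan-leukocyte and macrophage ranges overlapped DMSO. The neutrophil sum was 3.19 to 4.50 CPM at 25 µM dexamethasone, below the 4.71 to 6.86 CPM of DMSO. At 0.1 µM fluticasone propionate it was 3.36 to 7.02 CPM and overlapped DMSO. The sum of 11 lymphocyte genes found was 62.9 to 93.6 CPM at 25 µM dexamethasone and overlapped DMSO (70.6 to 84.4 CPM). At 0.008 µM dexamethasone it was 84.8 to 94.6 CPM, above DMSO. No marker of these leukocyte lists was called. Their part in the values of the members and of the interferon-stimulated genes was not tested.

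The 18 tissue markers of the whole larva had lower sums than DMSO in several dexamethasone groups. Their summed level was 10961 to 12555 CPM at 0.25 µM, 10093 to 11909 CPM at 0.8 µM, 11689 to 11939 CPM at 2.5 µM and 11303 to 12945 CPM at 8 µM, each below the 13244 to 13825 CPM of DMSO. At 25 µM it was 12590 to 14568 CPM and overlapped DMSO, as it did at 0.1 µM fluticasone propionate (11818 to 15012 CPM). Reads outside genes averaged 30.4% at 0.25 and 0.8 µM and 27.8% at 2.5 and 8 µM dexamethasone. They averaged 25.8% at 25 µM and 25.0% in DMSO. At 0.025 and 0.08 µM, where the sums overlapped DMSO, they averaged 28.5 and 28.6%. The compound and this share cannot be told apart in the marker sums, and the part of either was not tested. At 0.8 µM 16 of 18 had a negative difference, against 49.8% of all tested genes, and 5 fell: the pancreatic carboxypeptidase gene cpa1 (-0.62 ± 0.14), the skin keratin gene krt5 (-0.50 ± 0.12), the muscle myosin light chain gene mylpfa (-0.34 ± 0.09), the cone opsin gene opn1sw2 (-0.44 ± 0.12) and, beyond the 4 with the smallest p, the muscle actin gene acta1b, with adjusted p-values of 0.0123 to 0.0446 (edgeR). Each of these calls was lost once reads outside genes entered the fit as a covariate, where krt5 was -0.24, mylpfa -0.14 and acta1b -0.22, against -0.46 for acta1b without it. Each was also lost without library A of that group or without DMSO library B or C. At 8 µM cpa1 fell (-0.61 ± 0.14, adjusted p = 0.0332, edgeR), a call lost without library A or C of that group or any DMSO library. At 25 µM cpa1 (-0.69 ± 0.14) and opn1sw2 (-0.69 ± 0.12) fell, and both calls were kept under the alternatives run (adjusted p at most 0.0317 and 0.0107, edgeR and DESeq2). The slope of opn1sw2 over dexamethasone was -0.15 ± 0.03 (adjusted p = 0.0016, edgeR), a call lost without letter C (-0.12) or without the 25 µM group (-0.11). No tissue marker was called with fluticasone propionate, where 16 of 18 had a negative slope up to 0.1 µM (median -0.11), against 50.9% of all tested genes. The part of these shifts in the values of the members and of the interferon-stimulated genes was not tested.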

How the data were processed

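Messenger RNA 3′ ends of 51 whole-larva libraries were sequenced. The deposited values are whole-number counts of reads per gene, one table per compound with the DMSO libraries in both. Per the submitters' processing notes, reads passed through STAR 2.7.10a and HTSeq 2.0.1 among other tools (bcl2fastq 2.20.0, MultiQC 1.12, FastQC, edgeR). A build of the genome is not given in the sources used here, nor is the collapsing of reads by molecular identifier. The authors' deposited log2 tables equal log2 of TMM-scaled CPM plus 1 within 1e-06 for 18075 and 17877 genes, and were used for no test. Rows that name no gene (reads outside genes, ambiguous, not unique or not aligned) were kept out of library sizes; ambiguous reads were 0.592 to 0.802% of a library, those not aligned 6.94 to 8.77% and those not unique 10.6 to 12.2%.

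Counts were tested in R 4.3.3 with edgeR 4.0.16 (filterByExpr with a minimum count of 10, TMM scaling, robust quasi-likelihood fit, Benjamini-Hochberg adjustment over all tested genes, threshold 0.05). All groups of a compound and DMSO shared 1 fit; trends used treated libraries only; matched pairs used all 51 libraries. DESeq2 1.42.0 was an alternative, with others named at the end, and the fitting code was tested on simulated data. CPM values were averaged with SD over 3 libraries, and precision is limited by the 1316614 to 2097358 reads in genes per library. The members and gene lists were chosen with earlier results of these data known. Values of 1 listed gene are not reported here, though counts over members include it. From each list, genes passing the threshold are named, up to 4 by smallest p, and otherwise up to 2 by highest CPM; exceptions are stated. Of 275 list entries, 219 were found in the tables, in part through the symbols of a RefSeq gene table. Libraries of 1 group differed by more than sampling noise, so none was taken as a repeat deposit.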

Additional observations from a re-analysis of the deposited data

How the results depend on the processing

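No member was called under any alternative run for the trends and the tested contrasts with DMSO, which leave out 0.19 µM fluticasone propionate. These alternatives were another scaling, DESeq2, no filter on low counts and a covariate for reads outside genes. Others were only the compared libraries, measured concentrations and single libraries left out. Another, chosen after seeing the data, left out the libraries above 30% outside genes. In the matched pairs, dropping the low-count filter gave 1 called member, irf1b at 1.36, in the pair that uses the 0.19 µM libraries for which it was picked, so that it is no independent call; the cause was not tested. Slopes near 0 changed sign. Over dexamethasone irf9 had -0.020 and irf5 0.041 without the 25 µM group, and leaving out single letters gave -0.059 to 0.107 for irf9 and -0.000905 to 0.029 for stat2. Over fluticasone propionate, leaving out single letters gave -0.109 to 0.013 for stat3. The slope of irf9 over fluticasone propionate was -0.71 to -0.22 over its alternatives (adjusted p 0.0646 to 0.889, edgeR). The lowest of these p-values came from the fit with the 0.19 µM group, which chose the members, so it is not independent of that choice. The slope of irf1b over dexamethasone was -0.39 to -0.25 (adjusted p 0.0573 to 0.673, edgeR and DESeq2). Correlations of same-letter deviations with DMSO were -0.05 to 0.09, so the letters showed no pairing of treated libraries with DMSO. Pairing by letter among the treated groups was not tested. The libraries above 30% outside genes were letter A at 0.025, 0.08, 0.25, 0.8 and 8 µM dexamethasone (30.8 to 33.6%). The others were letter B at 0.25 µM dexamethasone (30.8%) and letter C at 0.019 µM fluticasone propionate (32.1%). With the letter as a block, irf9 at 0.1 µM fluticasone propionate was -1.43 (adjusted p = 0.227, edgeR), and 0 members were called. The stimulated genes at 25 µM dexamethasone had medians of -0.85 without DMSO library B to -0.40 with only the 6 compared libraries, where 10 of them passed the filter; 1 was called without library A at 25 µM. With 5 to 26 reads of irf9 per library, depth limits every statement on the lower members.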
